A study of Homo sapiens with 6 samples.

Results

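The mitochondrial protein import machinery was taken as the genes of the deposited table whose symbol begins with TOMM or TIMM, pseudogenes left out, together with 14 further genes listed by name. The prefix gave 23 genes, so 37 of 17297 genes in the table were followed. Almost all mitochondrial proteins are encoded in the nucleus and made in the cytosol. They enter through the TOM complex of the outer membrane, which consists of receptors, the channel TOMM40 and small accessory subunits. From there, precursors with a cleavable presequence pass through the TIM23 complex of the inner membrane and are pulled in by a motor built on the chaperone HSPA9. Carrier proteins are escorted by small TIM chaperones to the TIM22 complex, and outer membrane barrels are inserted by the SAM complex. TOMM20, a receptor of the TOM complex, is also widely used as a marker of mitochondrial mass.

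LNCaP cells, an established line of human prostate cancer with luminal, androgen-responsive features, carried either the empty retroviral pBabe vector (pBabe-vector) or the same vector with wild-type GNA13, the gene of the G protein subunit Gα13 (pBabe-GNA13). Both lines were transduced cells kept in puromycin, and RNA was taken from 3 cultures of each after 48 h. Each condition was thus 1 stable line, and its replicates were cultures of that line. The p-values thus measure the spread between cultures or, where cultures were paired, between the paired differences. In bulk RNA, fewer cells of a kind and less RNA per cell cannot be told apart. The libraries held 33002160 to 40628970 counts. One library of each line was tagged std in the column headings, and libraries were paired across lines by this tag and by replicate number (std pair, pair of replicate 2, pair of replicate 3). Normalized read counts are given as CPM. GNA13 was expressed at 820.1, 886 and 747 CPM in the std, replicate 2 and replicate 3 libraries of pBabe-GNA13 and at 76.7, 69.4 and 65.4 CPM in those of pBabe-vector. Of the LNCaP markers, 6 of 6 were detected, with a summed level of 5325 to 8012 CPM in pBabe-GNA13 and 4577 to 7214 CPM in pBabe-vector. Of the markers of other cells, 3 of 3 basal markers summed to 4.50 to 8.26 CPM against 2.38 to 2.48 CPM, 3 of 3 fibroblast markers to 17.2 to 24.6 CPM against 11.6 to 23.2 CPM, and SYP, the only neuroendocrine marker analysed, to 2.53 to 3.40 CPM against 4.22 to 4.46 CPM. COL1A1 made up most of the fibroblast sum, and its groups overlapped. KRT5, TP63, COL1A2 and DCN, markers of these other cells, were at 0 counts in replicate 2 of both lines. In the std and replicate 3 libraries, COL1A2 had 2.57 and 2.53 CPM in pBabe-GNA13 against 0.0477 and 0.0935 CPM in pBabe-vector. KRT5 had 3.08 and 3.72 CPM against 0.572 and 0.592 CPM there. The basal marker KRT14 was counted in every library and its groups did not overlap. In the std, replicate 2 and replicate 3 libraries it had 4.26, 4.50 and 4.39 CPM in pBabe-GNA13 and 1.81, 2.48 and 1.81 CPM in pBabe-vector. The part of these differences in the results below was not tested.

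Levels in pBabe-vector spanned more than 2 orders of magnitude once CPM were divided by the length of the canonical transcript. TOMM7, a small TOM subunit, had the highest level, at 464 ± 32.5 CPM per kb (SD, n = 3). It was followed by TIMM8B with 163 ± 32.2 CPM per kb, HSPA9 with 122 ± 7.83 CPM per kb, TIMM13 with 109 ± 14.4 CPM per kb and TOMM20 with 95.9 ± 9.37 CPM per kb (SD, n = 3 each). HSPA9, TIMM13 and TOMM20 followed each other at distances within the spread of their libraries, and TIMM8B and HSPA9 lay further apart than that. The channel TOMM40 ranked 12 of 37, at 58.9 ± 19.6 CPM per kb, and its paralog TOMM40L ranked 35, at 8.38 ± 1.63 CPM per kb. TOMM5, another small TOM subunit, was the lowest of the 37, at 2.68 ± 0.914 CPM per kb and with 36 to 86 counts per library. Its exons share 860 bases on the same strand with other annotated genes, and how such reads were assigned was not found in the sources used here. Of the 37, 7 share exon sequence with another gene on their own strand and 16 with one on the opposite strand, and pseudogenes named after 15 of them are annotated.

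**Figure D1:**
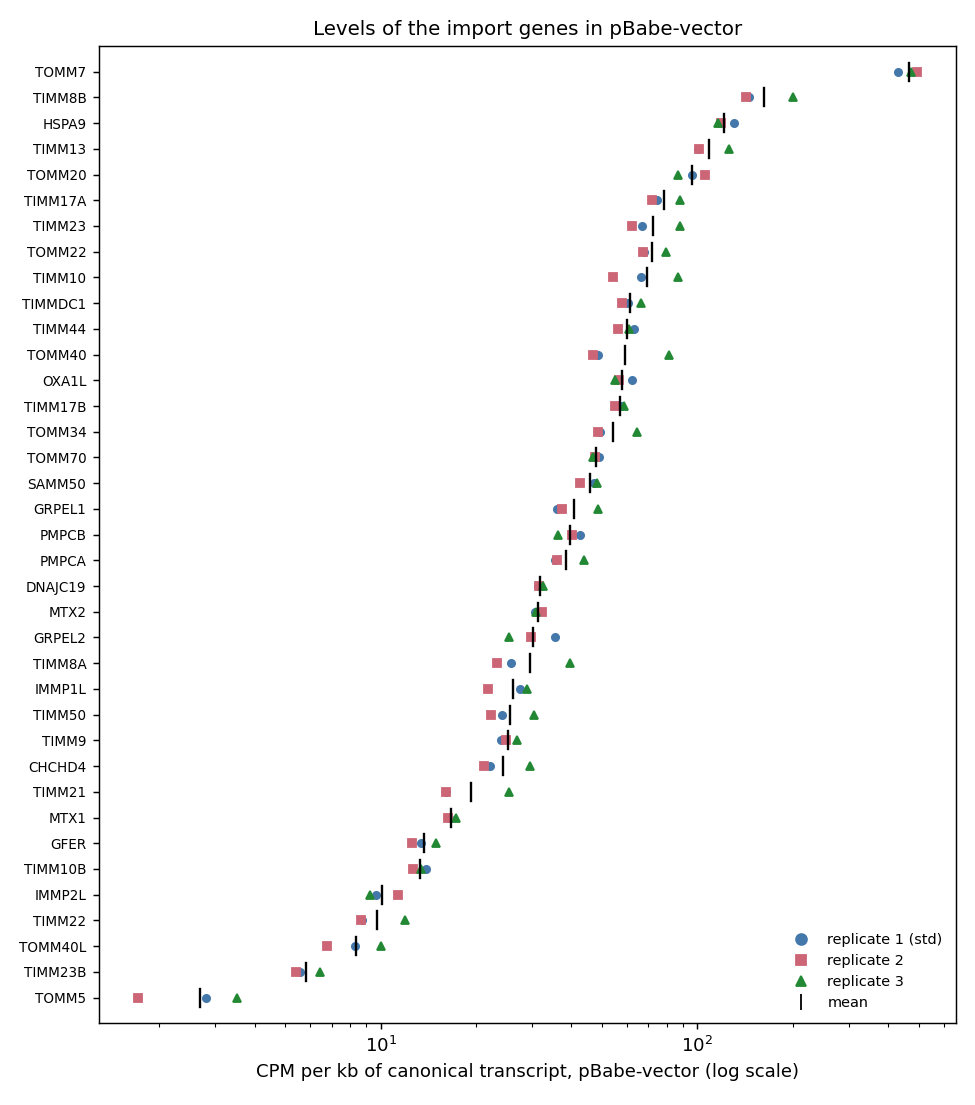
Level of each import gene in the 3 pBabe-vector libraries, as CPM per kb of canonical transcript on a log axis (points: libraries, bar: mean). Levels ran from 2.68 for TOMM5 to 464 for TOMM7, and the channel TOMM40 lay above its paralog TOMM40L.

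No import gene was called as different between pBabe-GNA13 and pBabe-vector in the comparison of 3 against 3 libraries. A gene was called when its false discovery rate (FDR, the p of the quasi-likelihood test in edgeR after Benjamini-Hochberg adjustment over the whole table) was below 0.05. Of the 37, 0 were called, where 0.139% of all genes were (0.116% higher and 0.0231% lower). At an unadjusted p below 0.05 there were also 0, where 8.46% of all genes passed. DESeq2, limma-trend and the newer quasi-likelihood method of edgeR also called 0 members. The log2 fold changes (log2FC, positive where pBabe-GNA13 was higher) were small, between −0.33 and 0.13 with a median of −0.09, beside −0.0013 over all genes and −0.01 over 12778 expressed genes (those whose log2 CPM averaged more than 1). Of the 37, 29 were below 0 and 8 above. In this comparison the median depended on single libraries, each left out while its partner stayed in. It was −0.012 without replicate 2 of pBabe-GNA13, −0.017 without replicate 3 of pBabe-vector, −0.165 without replicate 3 of pBabe-GNA13 and −0.16 without replicate 2 of pBabe-vector.

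Within the pairs of libraries, whose cultures deviated together from the mean of their line, more genes of the whole table were called, import genes among them. When the pair entered as a block (blocked FDR), 8 of 37 members (21.6%) were called, where 19.7% of all genes were. All 8 were lower in pBabe-GNA13, where 10.4% of all genes were called lower. These were TOMM22, TOMM34, SAMM50, TIMM9, TIMM10, TIMM10B, GRPEL2 and PMPCB. None was called higher, where 9.32% of all genes were. These shares of blocked calls include genes with few counts and were not taken over expressed genes alone. The blocked fit removes the spread that both libraries of a pair share and leaves 2 residual degrees of freedom per gene. Its p-values thus rest largely on the spread pooled over genes. A total of 20 members (54.1%) were lower in 3 of 3 pairs, where 25.3% of all genes and 29.8% of expressed genes were, and 3 were higher in 3 of 3 pairs (TOMM20, TIMM23B and DNAJC19), where 22.6% of all genes and 24.4% of expressed genes were. The remaining 14 members changed sign between pairs. Any difference below 0 counted as lower, however small. The median difference of the 37 was −0.02 in the std pair, −0.17 in the pair of replicate 2 and −0.10 in that of replicate 3. Without the std pair 10 members were called lower, without the pair of replicate 2 there were 7, and without that of replicate 3 there were 5. The median log2FC of the 37 in these blocked fits was −0.117, −0.066 and −0.090, in the same order.

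**Figure D2:**
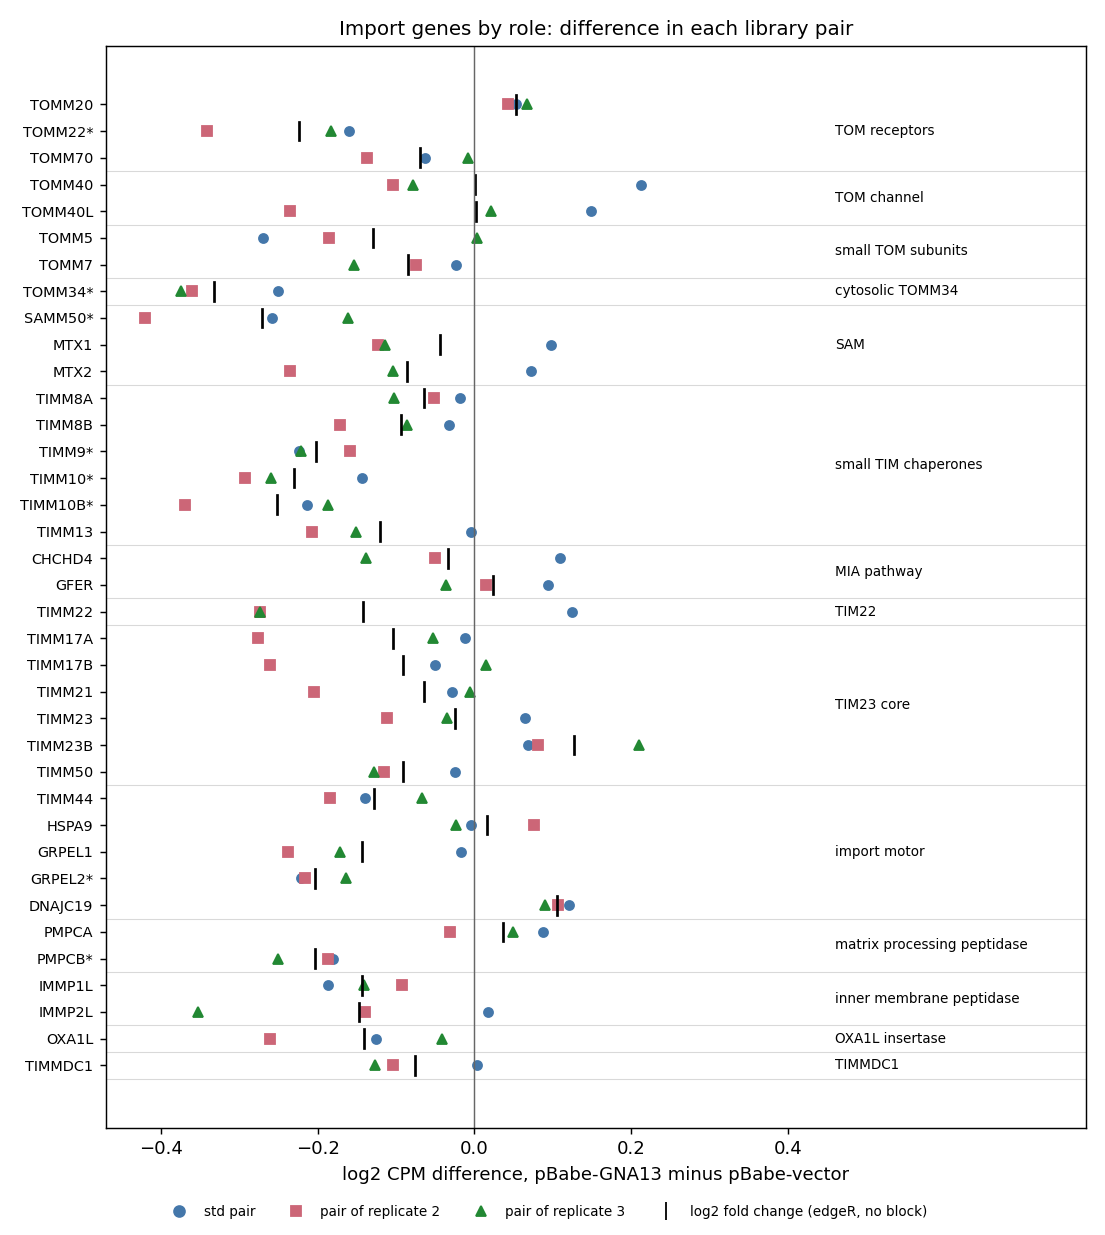
Difference in log2 CPM between pBabe-GNA13 and pBabe-vector for each import gene in each of the 3 library pairs (points), grouped by role, with the log2FC of the fit without the block (black bar). An asterisk marks the 8 genes called with the block, and the points of each of these lie below 0 in 3 of 3 pairs.

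Among the receptors of the TOM complex, TOMM20, which binds presequences, was expressed at 327, 356 and 298 CPM in the std, replicate 2 and replicate 3 libraries of pBabe-GNA13, and at 315, 346 and 284 CPM in those of pBabe-vector. The groups overlapped, with the replicate 2 library highest in both lines, and each pBabe-GNA13 library was slightly above its partner. The log2FC was 0.05 (SE 0.12, edgeR FDR 0.988, blocked FDR 0.513). Without replicate 2 of pBabe-GNA13 it was −0.012, and without replicate 3 of pBabe-vector −0.015, the partner library kept in each case. In the blocked fit it was 0.059 without the std pair, 0.056 without that of replicate 2 and 0.058 without that of replicate 3. In GRCh38 (Gencode 44), TOMM20 spans 235109341 to 235128837 of chromosome 1, and 4 annotated pseudogenes bear its name.

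TOMM22, the central receptor that also holds the complex together, had 123, 108 and 143 CPM in pBabe-GNA13 and 137, 137 and 162 CPM in pBabe-vector (std, replicate 2 and replicate 3). Every pBabe-GNA13 library was below its partner, although the groups overlapped through replicate 3 of pBabe-GNA13. This gave a log2FC of −0.22 (SE 0.13, edgeR FDR 0.761), and the gene fell in the fit with the block (blocked edgeR FDR 0.00273). In the blocked fit with its chromosome centred on the median of its genes, TOMM22 was −0.10 and not called (edgeR FDR 0.225). It lies on chromosome 22 from 38681957 to 38685421, and 6 annotated pseudogenes bear its name. TOMM70, the receptor for carrier precursors delivered by cytosolic chaperones, ranged from 178 to 201 CPM over all libraries and had a log2FC of −0.07 (edgeR FDR 0.949, blocked FDR 0.398).

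The TOM channel and its small subunits were not called in either fit. TOMM40L, the paralog of the channel protein, had 25.6, 16.1 and 28.5 CPM in pBabe-GNA13 and 23.1, 18.96 and 28.1 CPM in pBabe-vector. Its replicate 2 libraries were the lowest of both lines, and the log2FC was 0.0018 (SE 0.23, edgeR FDR 1.00), or −0.013 with the block (FDR 0.951). TOMM40 had 0.0012 on the same scale (SE 0.27). TOMM7, which regulates the stability of the complex, had 183, 203 and 185 CPM in pBabe-GNA13 and 186, 213 and 205.5 CPM in pBabe-vector. It was lower in 3 of 3 pairs with overlapping groups, and its log2FC was −0.08 (SE 0.10, edgeR FDR 0.933, blocked FDR 0.289).

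In the SAM complex, SAMM50, the barrel that inserts other barrel proteins into the outer membrane, had 66.6, 53.7 and 73.0 CPM in pBabe-GNA13 and 79.6, 71.9 and 81.6 CPM in pBabe-vector. The libraries of pBabe-GNA13 were lower in each pair, and the groups overlapped only between replicate 3 of pBabe-GNA13 and replicate 2 of pBabe-vector. The log2FC was −0.27 (SE 0.13, edgeR FDR 0.657), and SAMM50 fell with the block (blocked edgeR FDR 0.000495). In the blocked fit with its chromosome centred on the median of its genes, SAMM50 was −0.15 and not called (edgeR FDR 0.0666). It lies on chromosome 22 from 43955442 to 44010531. Its partners in the complex, the metaxins MTX1 and MTX2, had log2FC values of −0.04 and −0.09 (edgeR FDR 0.991 and 0.933, blocked FDR 0.736 and 0.385). Both were higher in the std pair and lower in the other two.

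TOMM34, a cytosolic cochaperone of precursor proteins that shares only the name with the TOM complex, had the lowest log2FC of the 37. Its values were 81.7, 74.6 and 98.3 CPM in pBabe-GNA13 and 97.2, 95.8 and 128 CPM in pBabe-vector, lower in 3 of 3 pairs with overlapping groups. This gave a log2FC of −0.33 (SE 0.15, edgeR FDR 0.628), and the gene fell with the block (blocked edgeR FDR 3.94e-05). With the block and its chromosome centred on the median of its genes, TOMM34 was −0.13 and not called (edgeR FDR 0.0994). TOMM34 lies on chromosome 20 from 44942130 to 44960397.

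**Figure D3:**
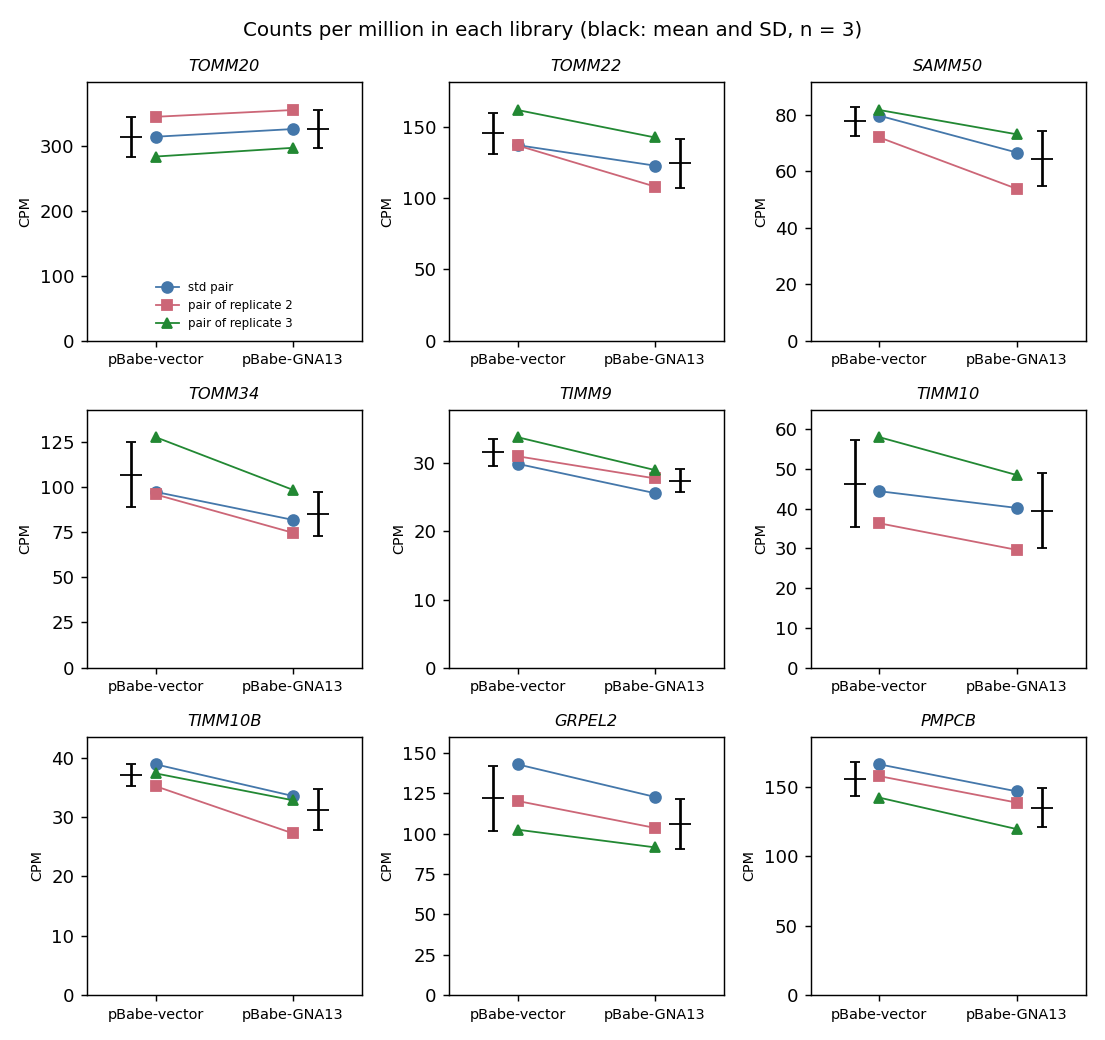
CPM in each library for TOMM20 and the 8 import genes called with the block, with lines joining the libraries of a pair and the mean and SD of each line in black (n = 3). The 8 called genes slope downward in 3 of 3 pairs, while the cultures of 1 line often differ by more than the lines do.

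Of the small TIM chaperones of the intermembrane space, 6 of 6 were lower in 3 of 3 pairs, where 25.3% of all genes and 29.8% of expressed genes were. Their median log2FC was −0.16, beside −0.0013 over all genes, and 3 were called lower with the block, where 10.4% of all genes were. TIMM9 and TIMM10 form the hexameric chaperone that carries hydrophobic precursors, and TIMM10B joins them at the TIM22 complex. TIMM8A, TIMM8B and TIMM13 belong to a second chaperone of this kind. The 3 called genes were those of the first set (median log2FC −0.23), and those of the second set had a median of −0.09. In the std pair the second set was close to 0 (log2 difference −0.018 for TIMM8A, −0.032 for TIMM8B and −0.0038 for TIMM13). The first set had −0.22 (TIMM9), −0.14 (TIMM10) and −0.21 (TIMM10B) there. A difference between the sets was not tested.

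TIMM10B had 33.5, 27.2 and 32.8 CPM in pBabe-GNA13 and 38.9, 35.2 and 37.4 CPM in pBabe-vector, and the groups did not overlap. Its log2FC was −0.25 (SE 0.12, edgeR FDR 0.620), and the gene fell with the block (blocked edgeR FDR 0.00441). TIMM9 had 25.6, 27.8 and 29.0 CPM in pBabe-GNA13 and 29.9, 31.0 and 33.8 CPM in pBabe-vector, also without overlap. Its log2FC was −0.20 (SE 0.11, edgeR FDR 0.714), and it fell with the block (blocked edgeR FDR 0.0277). This call of TIMM9 was lost without the std pair (0.0967), without the pair of replicate 3 (0.204) and with GC and length correction (0.0893), and that of TIMM10B without the pair of replicate 2 (0.0598). TIMM10B lies on chromosome 11 from 6481501 to 6484681 and TIMM9 on chromosome 14 from 58408495 to 58427531. Exons of TIMM9 share 376 bases with genes on the opposite strand, KIAA0586 among them, and 3 annotated pseudogenes bear its name. These were the only 2 members whose pBabe-GNA13 libraries all lay below all pBabe-vector libraries, as 6.76% of all genes and 7.47% of expressed genes did (exact permutation test, two-sided p = 0.10 for each, the smallest that 3 against 3 libraries allow). For TIMM10 the values were 40.1, 29.6 and 48.4 CPM in pBabe-GNA13 and 44.4, 36.3 and 57.9 CPM in pBabe-vector. The replicate 3 libraries were highest and the replicate 2 libraries lowest in both lines, so the groups overlapped. TIMM10 lies on chromosome 11 from 57528464 to 57530803. The log2FC was −0.23 (SE 0.22, edgeR FDR 0.910), and TIMM10 fell with the block (blocked edgeR FDR 0.00508, or 0.0900 without the pair of replicate 3). TIMM8A, TIMM8B and TIMM13 had log2FC values of −0.06, −0.09 and −0.12 (edgeR FDR 0.930 to 1.00, blocked FDR 0.122 to 0.582).

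Because TIMM9, TIMM10 and TIMM10B act in 1 complex and were lower together, the 250 bases before their RefSeq starts (GRCh38.p14) are shown, 5′ to 3′ on the strand of the gene. The windows lie at chr14:58427532-58427781 (TIMM9, minus strand), chr11:57530755-57531004 (TIMM10, minus strand) and chr11:6481251-6481500 (TIMM10B, plus strand). Capitals mark the letters CCGGAAGT, bound by ETS factors, on either strand.
TIMM9: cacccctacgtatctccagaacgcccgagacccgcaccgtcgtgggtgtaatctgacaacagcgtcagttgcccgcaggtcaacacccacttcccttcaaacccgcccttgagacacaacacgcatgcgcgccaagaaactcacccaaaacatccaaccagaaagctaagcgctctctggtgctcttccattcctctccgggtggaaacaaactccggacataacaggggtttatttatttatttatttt
TIMM10: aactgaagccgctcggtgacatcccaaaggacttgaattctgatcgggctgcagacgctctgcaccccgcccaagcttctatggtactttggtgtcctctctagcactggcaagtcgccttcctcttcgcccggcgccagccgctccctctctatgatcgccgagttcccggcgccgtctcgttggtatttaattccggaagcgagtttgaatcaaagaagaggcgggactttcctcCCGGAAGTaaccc
TIMM10B: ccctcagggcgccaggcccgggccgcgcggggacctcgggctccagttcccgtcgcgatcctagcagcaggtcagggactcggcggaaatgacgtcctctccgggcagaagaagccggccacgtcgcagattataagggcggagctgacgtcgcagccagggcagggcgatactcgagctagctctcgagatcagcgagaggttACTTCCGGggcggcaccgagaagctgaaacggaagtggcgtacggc
TIMM10 and TIMM10B hold the letters once each in these windows, and they were not found in that of TIMM9. The Gencode span of TIMM10 given above starts earlier than its RefSeq start, so that the last 49 bases of its window, the marked letters among them, lie within that span. In windows that run from 250 bases before to 50 bases after the start, 34 of 37 members had a promoter in the table used. Of these, 20.6% held CCGGAAGT, against 4.14% of all 35116 promoters and 9.59% of the 8946 promoters of expressed genes. The NRF1 motif was in 23.5%, 8.32% and 17.2% of these sets, the YY1 motif in 8.82%, 1.20% and 3.11%, and CACGTG (E-box) in 11.8%, 7.26% and 10.5%, both strands counted. Of the 8 genes called with the block, 3 held CCGGAAGT, 2 the NRF1 motif, 1 CACGTG and 0 the YY1 motif. The other members that held CCGGAAGT were TOMM20, MTX2, TOMM70 and TIMMDC1, none of them called with the block. A link between these letters and the calls was not tested.

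In the MIA pathway, which oxidizes cysteines of small proteins of the intermembrane space, neither gene was called. GFER, the sulfhydryl oxidase, had 33.8, 30.1 and 34.6 CPM in pBabe-GNA13 and 31.7, 29.7 and 35.5 CPM in pBabe-vector, with interleaved groups. Its log2FC was 0.02 (SE 0.11, edgeR FDR 1.00, blocked FDR 0.847), and −0.032 without replicate 2 of pBabe-vector. CHCHD4, the receptor and oxidoreductase, had −0.03 (edgeR FDR 1.00, blocked FDR 0.843). Exons of GFER share 1121 bases with a gene on the opposite strand.

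TIM22 and TIM23, the translocases of the inner membrane, held no called gene. TIMM22, the channel for carrier proteins, had 30.2, 22.8 and 31.3 CPM in pBabe-GNA13 and 27.7, 27.5 and 37.9 CPM in pBabe-vector. It was higher in the std pair and lower in the others, with a log2FC of −0.14 (SE 0.18, edgeR FDR 0.947, blocked FDR 0.220), or 0.025 without replicate 3 of pBabe-vector. When the std pair was left out of the blocked fit, TIMM22 was called lower (edgeR FDR 0.00895). Another TIM22 subunit, TIMM29, is listed under its older symbol C19orf52 and so fell outside the rule. Its log2FC was −0.09 (edgeR FDR 0.962, blocked FDR 0.490).

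Of the 6 genes of the TIM23 core, 5 had log2FC values between −0.10 and −0.02: the channel gene TIMM23, its partners TIMM17A and TIMM17B, the presequence receptor TIMM50 and the regulatory subunit TIMM21. Their edgeR FDR was 0.950 to 1.00 and their blocked FDR 0.176 to 0.801. TIMM23B, a near-identical copy of TIMM23, had the highest value of the 37. It had 14.5, 14.3 and 18.6 CPM in pBabe-GNA13 and 13.9, 13.5 and 16.1 CPM in pBabe-vector, and was higher in 3 of 3 pairs with overlapping groups. This gave a log2FC of 0.13 (SE 0.15, edgeR FDR 0.938, blocked FDR 0.362), which was −0.00035 without replicate 3 of pBabe-GNA13. How reads that match both copies were counted was not given in the sources used here, so both values are uncertain.

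In the import motor, the nucleotide exchange factor GRPEL2 was the only called gene. It had 123, 104 and 91.4 CPM in pBabe-GNA13 and 143, 120.2 and 102 CPM in pBabe-vector. The std libraries were highest and the replicate 3 libraries lowest in both lines, and the pBabe-GNA13 library was lower in each pair. GRPEL2 lies on chromosome 5 from 149345430 to 149354583. The log2FC was −0.20 (SE 0.16, edgeR FDR 0.867), and GRPEL2 fell with the block (blocked edgeR FDR 0.00581). Its paralog GRPEL1 had −0.14 (edgeR FDR 0.923, blocked FDR 0.0703), lower in 3 of 3 pairs. A difference between the paralogs was not tested. HSPA9, the Hsp70 chaperone that both factors serve, was the most counted member, at 503 to 575 CPM over all libraries, and had a log2FC of 0.02 (edgeR FDR 1.00, blocked FDR 0.880). TIMM44, which anchors HSPA9 at the channel, had −0.13 (edgeR FDR 0.881, blocked FDR 0.0851).

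DNAJC19, a J-protein of the inner membrane related to the motor's cochaperone, was named after its values were seen. It had 48.2, 48.3 and 48.9 CPM in pBabe-GNA13 and 44.4, 44.9 and 45.9 CPM in pBabe-vector. It was the only member whose pBabe-GNA13 libraries all lay above the others, as 7.27% of all genes and 7.08% of expressed genes did (exact permutation test, two-sided p = 0.10). This gave a log2FC of 0.11 (SE 0.08, edgeR FDR 0.870, blocked FDR 0.196), and 9 annotated pseudogenes bear its name.

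For GRPEL2, which fell with the block, the 250 bases before the RefSeq start at chr5:149345249-149345498 (plus strand, GRCh38.p14) held CCGGAAGT at 2 places, in capitals. The last 69 bases of this window, with 1 of the 2 places, lie within the Gencode span given above, which starts earlier. In the same window of PMPCB, which also fell with the block, these letters were not found.
GRPEL2: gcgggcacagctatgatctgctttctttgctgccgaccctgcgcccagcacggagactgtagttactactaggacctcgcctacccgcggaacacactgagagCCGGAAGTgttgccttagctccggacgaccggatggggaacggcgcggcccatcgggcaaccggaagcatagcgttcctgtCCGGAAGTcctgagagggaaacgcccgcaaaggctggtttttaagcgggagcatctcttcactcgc

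The 2 subunits of the matrix processing peptidase, which removes presequences, were not called alike. PMPCB, the catalytic subunit, had 147, 139 and 119.5 CPM in pBabe-GNA13 and 166, 158 and 142 CPM in pBabe-vector, lower in 3 of 3 pairs with overlapping groups. Its log2FC was −0.20 (SE 0.11, edgeR FDR 0.739), and PMPCB fell with the block (blocked edgeR FDR 0.00468, or 0.107 without the pair of replicate 3). It lies on chromosome 7 from 103297407 to 103331818. Exons annotated for PMPCB share 1294 bases with other genes on its own strand and 1400 bases with DNAJC2 on the opposite strand, and use of strand in the counting was not given in the sources used here. PMPCA, the subunit that recognizes the substrate, had a log2FC of 0.04 (edgeR FDR 1.00, blocked FDR 0.707) and was higher in 2 of 3 pairs. A difference between the subunits was not tested.

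Later steps at the inner membrane showed no call. IMMP1L, a catalytic subunit of the inner membrane peptidase, had 17.7, 15.0 and 19.3 CPM in pBabe-GNA13 and 20.2, 16.0 and 21.2 CPM in pBabe-vector, lower in 3 of 3 pairs with overlapping groups (log2FC −0.14, SE 0.16, edgeR FDR 0.923, blocked FDR 0.227). IMMP2L, the other catalytic subunit, had −0.15 (edgeR FDR 0.928, blocked FDR 0.203). OXA1L, the insertase for proteins exported from the matrix, had 159.6, 133 and 150.2 CPM in pBabe-GNA13 and 174, 159 and 154 CPM in pBabe-vector. Each pair was lower and the groups overlapped (log2FC −0.14, SE 0.11, edgeR FDR 0.862, blocked FDR 0.0643). TIMMDC1, which shares the prefix but is an assembly factor of complex I, had 144, 128 and 144 CPM in pBabe-GNA13 and 144, 137 and 157 CPM in pBabe-vector, close to each other in the std pair (log2FC −0.08, SE 0.10, edgeR FDR 0.957, blocked FDR 0.362).

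The medians of the outer and the inner membrane machinery were close, and a difference between them was not tested. The 10 genes of the outer membrane had a median log2FC of −0.08 and the 15 genes of inner membrane import and insertion a median of −0.10. In the std pair the medians were 0.01 for the outer and −0.02 for the inner group, in the pair of replicate 2 they were −0.16 and −0.18, and in the pair of replicate 3 they were −0.09 and −0.05. The order thus changed between pairs. Without replicate 2 of pBabe-GNA13 the outer median was −0.023 and the inner 0.0057, and without replicate 3 of pBabe-vector they were −0.045 and −0.012. Without replicate 3 of pBabe-GNA13 they were −0.118 and −0.165, and without replicate 2 of pBabe-vector −0.0996 and −0.16. In the blocked fit without the pair of replicate 2 the outer median was −0.029 and the inner −0.079. Of the outer group, 4 genes were lower in 3 of 3 pairs and 2 were called lower with the block. In the inner group the counts were 8 and 1, and among the 8 genes of the intermembrane space 6 and 3. Of all genes, 25.3% were lower in 3 of 3 pairs and 10.4% were called lower with the block.

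Several called members lay on chromosomes whose genes shifted as a whole between the lines. The median log2FC of expressed genes was −0.21 on chromosome 20 and −0.15 on chromosome 22. It was 0.12 on chromosome 9 and 0.29 on chromosome 12, and between −0.05 and 0.07 on the others. The 37 members lie on 17 chromosomes, and none lies on chromosome 12. TOMM34 (chromosome 20), TOMM22 and SAMM50 (both chromosome 22) were the 3 members on the lowered chromosomes, and all 3 were among the 8 called with the block. As given above, none of the 3 was called in the blocked fit once chromosomes were centred on their own medians.

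In the same fit 4 members stayed called, all lower (10.8% of the 37), where 14.3% of all genes were called, 7.61% lower and 6.72% higher. GRPEL2 had −0.19 (edgeR FDR 0.00894), PMPCB −0.17 (0.0216), TIMM10B −0.20 (0.0314) and TIMM10 −0.18 (0.0391). TIMM9 had −0.16 and was no longer called (0.102). The median of the 37 was −0.09 there as well. PMPCA and TOMM5, on the raised chromosome 9, had −0.09 and −0.27 relative to it (edgeR FDR 0.307 and 0.451).

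For most import genes, the cultures of 1 line spanned more than the difference between the lines. The range over the 3 libraries of pBabe-GNA13 exceeded the size of the log2FC for 35 of 37 members, and that over the 3 libraries of pBabe-vector did for 31. These counts were not compared with those over all genes. The ranges include the differences that both libraries of a pair shared. Replicate 3 was above replicate 2 in both lines for 28 members (75.7%), beside 41.7% of expressed genes. It was below in both lines for 6 (16.2%), beside 42.0%. The median difference on the log2 scale was 0.37 in pBabe-GNA13 and 0.25 in pBabe-vector, beside 0.00 and −0.01 over those genes. These are descriptions of 1 library each, and what set the cultures apart was not tested.

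Large differences of this kind were in TOMM40, TIMM21 and TIMM8A. TOMM40 had 76.9 CPM in replicate 2 and 136.5 CPM in replicate 3 of pBabe-GNA13, and 82.7 and 144 CPM in pBabe-vector. For TIMM21 the same libraries had 43.2 and 78.2 CPM, and 49.7 and 78.5 CPM. TIMM8A had 27.1 and 44.7 CPM, and 28.1 and 48.0 CPM. TOMM5 differed by 1.20 and 1.01 on the log2 scale, at 36 to 86 counts. In the opposite direction IMMP2L was 0.50 lower on the log2 scale in replicate 3 of pBabe-GNA13 and 0.29 lower in pBabe-vector, and TOMM20 was 0.26 and 0.28 lower. Both lines thus shared the direction for 34 of 37 members.

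Around this machinery, 23 further genes of import, presequence handling and inner membrane proteolysis were examined. None was called without the block, and 2 had an unadjusted p under 0.05, where 8.46% of all genes did. With the block 3 were called higher (DNAJC15, MIPEP and OMA1) and 1 lower (ROMO1), where 9.32% and 10.4% of all genes were, and the median log2FC of the 23 was −0.03. DNAJC15, a J-protein of the inner membrane and paralog of DNAJC19, had 2.84, 2.94 and 2.79 CPM in pBabe-GNA13 and 1.43, 1.09 and 1.22 CPM in pBabe-vector. The groups were far apart, with a log2FC of 1.19 (SE 0.20, edgeR FDR 0.123), and DNAJC15 rose with the block (blocked edgeR FDR 7.73e-05, or 9.63e-05 with each chromosome also centred). Its level was low throughout.

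ROMO1, a small protein of the inner membrane linked to TIM23, had 63.0, 59.4 and 64.3 CPM in pBabe-GNA13 and 68.2, 78.9 and 80.2 CPM in pBabe-vector (log2FC −0.28, edgeR FDR 0.453, blocked FDR 0.000610). It lies on chromosome 20, and with this chromosome centred it was −0.08 and not called (0.395). MIPEP, a matrix peptidase that trims some presequences further, had 66.1, 50.7 and 35.4 CPM against 50.5, 47.8 and 31.7 CPM (log2FC 0.23, edgeR FDR 0.928, blocked FDR 0.0120). OMA1, a stress-activated protease of the inner membrane, had 54.6, 54.8 and 50.1 CPM against 48.7, 47.8 and 44.3 CPM (log2FC 0.18, edgeR FDR 0.707, blocked FDR 0.0191, and 0.0701 with the chromosome also centred).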

How the data were processed

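RNA-seq of LNCaP cells was analyzed from 1 table of 6 libraries. Per the labels and the study's methods, the authors checked reads with FastQC 0.11.7, aligned them with STAR (version not given in the sources used here) to Gencode 38, and counted them with featureCounts. The authors deposited read counts, whole numbers with 1 row per gene symbol. All 6 columns were used. The heading of the pBabe-GNA13 library tagged std repeats a replicate number, so it was tied to its line only.

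After TMM normalization, counts were tested with edgeR 4.0.16 (glmQLFit and glmQLFTest, legacy method, R 4.3.3) over all 17297 genes without a filter. Genes with a Benjamini-Hochberg adjusted p (FDR) below 0.05 were called. Standard errors were derived from the F statistic. CPM are TMM-normalized, and log2 CPM used a prior count of 2. One read equals 0.0246 to 0.0303 CPM, so a count of 3 equals 0.0738 to 0.0909 CPM, which covers counting error only. Exact permutation tests used SciPy 1.17.1. Spans, lengths and exon overlaps came from Gencode 44 (GRCh38, as Gencode 38), which matched 14479 of the 17297 symbols, 37 of 37 members among them. Deviations from the group means correlated at 0.659, 0.807 and 0.888 within the std pair, the pair of replicate 2 and the pair of replicate 3 over 12778 genes. Between pairs the correlations were −0.736 to 0.125. Since the deviations of a line sum to 0 for each gene, positive values within pairs by themselves lower those between pairs. The pairs were treated as pairs on the values within them. The blocked fit is given beside the main one where it changes a call. The scripts were tested on simulated data.

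Members and gene lists were chosen with earlier results of these data known. Values in every library are given for TOMM20, for members called in the fit without or with the block, and for the member with the smallest p of each role. TOMM6, the leukocyte markers and CHGA were not analysed here, nor were protein sequences. Alternatives were other normalizations, a filter (filterByExpr), DESeq2 1.42.0, limma-trend (limma 3.58.1), the block, GC and length correction, chromosome centring and leaving out libraries or pairs. The newer quasi-likelihood method was added after seeing the data.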

Additional observations from a re-analysis of the deposited data

How the results depend on the processing

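Genes called over all genes numbered 24 without the block, 271 with DESeq2's Wald test, 5 with limma-trend, 3407 with the replicate block, 3350 with the block and GC and length correction, and 2480 with the block and each chromosome centred. Leaving out 1 library gave 2 (std library of pBabe-GNA13) to 15, and leaving a pair out of the blocked fit gave 3266 (std), 2550 (replicate 2) and 2250 (replicate 3). Import genes called lower numbered 0 without the block, 8 with the replicate block, 9 with the block and GC and length correction, and 4 with the block and each chromosome centred. With a pair left out of the blocked fit they numbered 10 (std), 7 (replicate 2) and 5 (replicate 3). GC and length correction added GRPEL1 (blocked edgeR FDR 0.0462) and OXA1L (0.0301) and dropped TIMM9 (0.0893). Of the 8 blocked calls, GRPEL2, SAMM50, TOMM22 and TOMM34 held with each pair left out, in fits with fewer residual degrees of freedom. Among these genes only GRPEL2 also stayed called with the block and each chromosome centred. TIMM10B was lost without the pair of replicate 2 (0.0598), and PMPCB (0.107), TIMM10 (0.0900) and TIMM9 (0.204) without that of replicate 3. TIMM9 was also lost without the std pair (0.0967), where GRPEL1 (0.0145), TIMM13 (0.0311) and TIMM22 (0.00895) were called too.

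With 1 library left out of the fit without the block, the median log2FC of the members ranged from −0.165 to −0.012 (without replicate 2 of pBabe-GNA13). That of the inner group ranged from −0.165 to 0.0057 (without the same library) and was −0.012 without replicate 3 of pBabe-vector, and that of the outer group ranged from −0.118 to −0.023. With a pair left out of the blocked fit, the median of the members ranged from −0.117 to −0.066. Values of 5 named members changed sign, among them TIMM22 (log2FC −0.14) and TIMM23B (0.13). TOMM40L was −0.022 with limma-trend, −0.013 with the replicate block, −0.019 with the block and GC and length correction, −0.032 with each chromosome centred, −0.044 with the block and centring, −0.096 and −0.023 in blocked fits without the std pair and that of replicate 3, and −0.16 to 0.21 with 1 library left out. The same range was −0.015 to 0.13 for TOMM20, −0.032 to 0.096 for GFER, −0.22 to 0.025 for TIMM22 and −0.00035 to 0.21 for TIMM23B, and GFER was −0.0068 in the blocked fit without the std pair. Of 323 values of 17 named members under 19 alternatives, 265 kept direction and call, 40 gained a call and 18 changed sign. Why they changed was not tested. Depth limited TOMM5 most, with 36 to 86 counts per library.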
